A study of Rattus norvegicus with 30 samples.

Results

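The mitochondrial genome carries a small set of protein-coding genes, all of them for subunits of the respiratory chain and ATP synthase. 10 of these genes were taken by their Ensembl identifiers, and all 10 were found among the 26404 identifiers of the rat count tables. 5 of them code for complex I (NADH dehydrogenase), namely mt-Nd1 (ENSRNOG00000030644), mt-Nd2 (ENSRNOG00000031033), mt-Nd4 (ENSRNOG00000029707), mt-Nd5 (ENSRNOG00000029971) and mt-Nd6 (ENSRNOG00000029042). 3 code for the catalytic core of complex IV (cytochrome c oxidase), namely mt-Co1 (ENSRNOG00000034234), mt-Co2 (ENSRNOG00000030371) and mt-Co3 (ENSRNOG00000030700). The remaining genes are mt-Atp6 (ENSRNOG00000031979), a proton-channel subunit of ATP synthase, and mt-Cytb (ENSRNOG00000031766), the cytochrome b of complex III. The tables hold identifiers without names, and the gene names follow the list by which the genes were chosen. Other mitochondrially encoded genes were not analysed here.

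Complex I takes electrons from NADH, complex III passes them to cytochrome c, and complex IV hands them to oxygen. The protons that these complexes pump drive ATP synthase, on which neurons depend for most of their ATP. Each complex also holds subunits from nuclear genes. A cell holds many copies of the mitochondrial genome, which is transcribed into long precursors that are then cut into single mRNAs. mt-Nd6 is read from the opposite strand to the other genes of the list. Most mitochondrial mRNAs carry short poly(A) tails, so libraries made from poly(A) RNA contain them, whereas the mRNA of mt-Nd6 largely lacks such a tail.

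Adult male Sprague-Dawley rats had either lateral fluid percussion injury over the left parietal cortex, a pressure pulse onto the intact dura that causes traumatic brain injury (TBI), or a sham operation. Both groups had the craniectomy and the same anaesthesia with sodium pentobarbital, chloral hydrate, magnesium sulphate, propylene glycol and ethanol, and the sham-operated rats had no impact. At 3 months after the operation, mRNA of the perilesional cortex, the thalamus and the hippocampus (labelled dorsal hippocampus, dissected as dentate gyrus with part of CA3) was sequenced from rats 1 to 5 (sham) and rats 6 to 10 (TBI). This gave 30 libraries, with 5 per group and area, and every rat gave all 3 areas. In bulk tissue, fewer cells or mitochondria and less RNA in each cannot be told apart. Markers of brain areas and cell types were not analysed here, because no identifier could be paired with a name.

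The libraries held between 21992859 and 31799879 counts, and the 10 genes had between 3047 and 1014789 counts each in a library, so that all 10 passed the filter on low counts in every area. The thalamus was sequenced on another instrument with longer reads according to the study's methods, so that area and sequencing cannot be told apart for it. In the hippocampus, sham rats 4 and 5 stood apart in the 4 most counted identifiers outside the 10 genes, called the dominant identifiers below. These 4 were picked by their mean share over the libraries of cortex and hippocampus, without the thalamus. They took 34.0% and 31.5% of the counts in rats 4 and 5, and between 5.45% and 12.2% in the other 8 hippocampal libraries. The study left a pair of sham hippocampal libraries out for poor alignment without naming the rats, and all 10 hippocampal libraries are used here. The hippocampal libraries labelled rat 3 and rat 8 went against their labels. Of 34 genes that differed between these rats by more than 2 on the log2 scale in the same direction in cortex and thalamus, all 34 differed in the opposite direction in the hippocampus. In 13 of them the opposite difference was above 1. Of the 34 genes, 2 had no unadjusted edgeR p under 0.05 for TBI in cortex or thalamus, and both were opposite as well. The check thus rests mostly on genes that differed with TBI.

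The share of each library taken by the 10 genes together was between 2.20% and 11.3%. In the cortex it was 5.25%, 8.42%, 9.70%, 8.38% and 10.1% in sham rats 1 to 5 and 8.27%, 5.45%, 6.90%, 11.3% and 9.56% in the TBI group (rats 6 to 10). The groups overlapped almost completely, with the lowest value in a sham rat and the highest in a TBI rat. The means were 8.37% ± 1.90 (SD, n = 5) in sham rats and 8.29% ± 2.27 (SD, n = 5) in TBI rats.

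In the thalamus the summed share was 4.005%, 7.04%, 4.20%, 4.84% and 6.85% in sham rats 1 to 5, and 4.59%, 3.88%, 6.03%, 7.94% and 6.41% in the TBI group (rats 6 to 10). Each group contained libraries with low and with high shares, and sham rats 2 and 5 lay above TBI rats 6, 7, 8 and 10. The means were 5.39% ± 1.46 (SD, n = 5) and 5.77% ± 1.59 (SD, n = 5). Rats 1, 6 and 7, which were among the 4 lowest, had the 3 deepest thalamic libraries (30343544, 31150713 and 31799879 counts), whereas rat 3, also low, had 23572002, and the part of depth in the difference was not tested.

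In the hippocampus the summed share was 4.20%, 5.21%, 3.87%, 2.20% and 2.55% in sham rats 1 to 5, and 4.38%, 3.89%, 4.12%, 3.96% and 4.91% in the TBI group (rats 6 to 10). Sham rats 4 and 5 were the lowest of the 10 libraries, and sham rat 2 was the highest. The means were 3.61% ± 1.23 (SD, n = 5) and 4.25% ± 0.414 (SD, n = 5), so that the spread was larger among sham rats and the difference in means of 0.648 percentage points (TBI minus sham) was smaller than the sham SD. It was -0.173 without the libraries of rats 4 and 5, 0.748 without those labelled rats 3 and 8, and -0.416 without all 4. Counting error was small beside this spread, since the 95% Wilson interval of a single summed share reached at most 0.0117 percentage points to either side. That interval covers counting error only, as the reads carried no molecular identifiers.

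**Figure D1:**
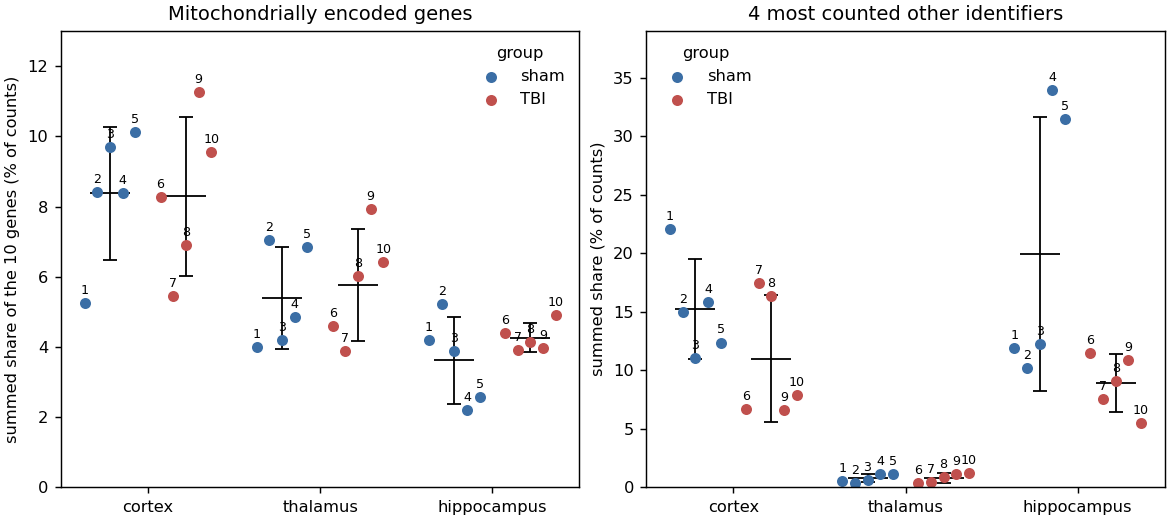
Left, the summed share of the 10 mitochondrially encoded genes in percent of all counts in each of the 30 libraries. Right, the share of the 4 dominant identifiers, which were picked over cortex and hippocampus only, in the same libraries. Points are libraries with the rat's number, horizontal lines are group means and bars are SDs (n = 5); the groups overlap in every area in the left panel, and the hippocampal libraries of sham rats 4 and 5 stand apart at 34.0% and 31.5% in the right panel.

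The dominant identifiers moved opposite to the mitochondrial share in several libraries. In the cortex they took 22.1%, 14.9%, 11.05%, 15.8% and 12.4% of the counts in sham rats 1 to 5 and 6.67%, 17.5%, 16.3%, 6.59% and 7.83% in the TBI group (rats 6 to 10). The 3 cortical libraries in which they were highest, those of rats 1, 7 and 8, were also the 3 with the lowest mitochondrial share. In the thalamus, which did not enter their choice, they took between 0.343% and 1.18%. The 10 most counted other identifiers of each thalamic library took between 4.74% and 7.61%. Taken as a percent of the counts outside the dominant identifiers, the mitochondrial share was still lowest in cortical rats 1, 7 and 8 (6.75%, 6.60% and 8.24%) and in hippocampal rats 4 and 5 (3.33% and 3.73%). On that scale the difference in means, TBI minus sham, was -0.581 percentage points in the cortex, 0.391 in the thalamus and 0.260 in the hippocampus. As a percent of all counts, the difference turned sign with single rats left out in the cortex (from -0.864 without rat 1 to 0.626 without rat 7) and in the thalamus (from -0.159 without rat 9 to 0.855 without rat 7), and in the hippocampus it ran from 0.296 without rat 4 to 1.05 without rat 2.

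Expressed as TMM-scaled percent, in which edgeR's trimmed mean of M values sets the library sizes so that the bulk of genes stays level, the hippocampal libraries of rats 4 and 5 were no longer apart. Their values became 3.86% and 4.20%, within the 3.50% to 4.63% of the other sham rats. TBI rats then lay between 3.19% and 3.99%, and the difference of the means, TBI minus sham, changed from 0.648 to -0.402 percentage points. In the cortex the TMM-scaled means were 8.90% ± 1.38 (SD, n = 5) in sham rats and 7.60% ± 1.67 (SD, n = 5) in TBI rats, again with overlapping groups. All fold changes that follow are on the TMM scale, and each log2 fold change is TBI against sham unless said otherwise.

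In the perilesional cortex, none of the 10 genes passed the test for TBI against sham at an adjusted p of 0.05 in edgeR's quasi-likelihood test. Of all 17185 genes tested in this area, 25.8% passed it. All 10 genes had a negative log2 fold change, between -0.31 and -0.15, with a median of -0.22 beside a median of -0.01 over all genes tested. No gene of the 10 had an unadjusted p under 0.05, against 37.9% of all genes, and DESeq2 and limma's voom also called 0 of the 10, beside 26.8% and 30.4% of all genes. The standard errors of the 10 genes, from 0.14 to 0.24, were above the median of 0.12 over all genes. The 10 also varied together across libraries, so that they are not 10 separate tests. The median of the 10 was between -0.34 (without TBI rat 9, smallest edgeR adjusted p = 0.0566) and -0.13 (without TBI rat 7) when each rat was left out in turn. No gene of the 10 had TBI libraries that lay wholly outside the sham libraries, beside 18.1% of all genes.

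Among the complex I genes in the cortex, mt-Nd5, a proton-pumping subunit, had the most negative value of the 10. It took 0.160%, 0.355%, 0.359%, 0.249% and 0.352% of the counts in sham rats 1 to 5 and 0.317%, 0.157%, 0.204%, 0.375% and 0.336% in the TBI group (rats 6 to 10). The lowest and the highest share were both in TBI rats, with sham rat 1 next to the lowest. Its log2 fold change was -0.31 (SE 0.21, edgeR adjusted p = 0.296), with a 95% interval from -0.75 to 0.14. mt-Nd1, mt-Nd2, mt-Nd4 and mt-Nd6 had values of -0.21, -0.27, -0.23 and -0.16, and mt-Nd6 had the largest standard error of the 10 at 0.24.

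For the complex IV genes, mt-Co1, the subunit that holds the oxygen-binding site, took 1.78%, 2.69%, 3.16%, 2.80% and 3.33% of the cortical counts in sham rats 1 to 5. In the TBI group (rats 6 to 10) it took 2.78%, 1.88%, 2.27%, 3.63% and 3.05%. Rats 1, 7 and 8 were again lowest, and the groups overlapped. The log2 fold change was -0.23 (SE 0.14, edgeR adjusted p = 0.243). mt-Co2, which receives electrons from cytochrome c, was at -0.15 and mt-Co3 at -0.22, each with a 95% interval that included 0.

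mt-Atp6 had the smallest p of the 10 in the cortex. Its share was 0.706%, 0.984%, 1.15%, 1.04% and 1.24% in sham rats 1 to 5 and 0.917%, 0.636%, 0.836%, 1.33% and 1.16% in the TBI group (rats 6 to 10). TBI rat 7 was lowest and TBI rat 9 highest, so that the groups overlapped. Its log2 fold change was -0.29 (SE 0.15, edgeR unadjusted p = 0.0711, adjusted p = 0.168), with a 95% interval from -0.60 to 0.03. mt-Cytb was at -0.21 (SE 0.15, edgeR adjusted p = 0.346).

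The cortical call changed when the dominant identifiers entered the fit. With the log2 share of these identifiers as a covariate, an alternative added after the data were seen, edgeR called 7 of the 10 genes lower in TBI rats (mt-Nd2, mt-Nd4, mt-Nd5, mt-Co1, mt-Co2, mt-Atp6 and mt-Cytb), beside 11.6% of all genes called lower in that fit. The median of the 10 was then -0.45, and mt-Nd5 was at -0.66 (edgeR adjusted p = 0.00373). Without the libraries of rats 1, 7 and 8 edgeR called 0 of the 10, beside 17.1% of all genes, and the median was -0.17. This covariate is itself lower in 3 of the 5 TBI libraries than in any sham library, so that group and covariate are partly confounded.

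**Figure D2:**
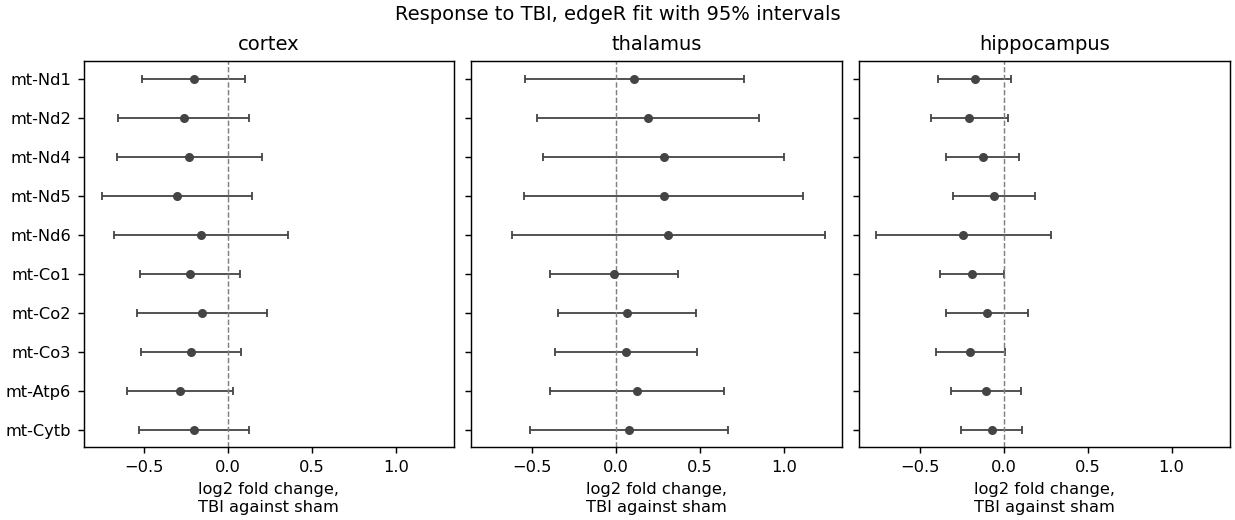
Points are log2 fold changes (TBI against sham) of the 10 genes in cortex, thalamus and hippocampus. Bars are 95% intervals computed from edgeR's test statistic (n = 5 against 5 in each area). All intervals include 0, the points of cortex and hippocampus lie below 0 and 9 of 10 in the thalamus lie above 0, and the thalamic intervals are the widest.

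In the thalamus, 0 of the 10 genes passed edgeR's test, beside 5.62% of all 16605 genes tested, and 0 had an unadjusted p under 0.05, against 23.3% of all genes. DESeq2 and limma's voom called 0 of the 10 as well, beside 10.9% and 16.1% of all genes. The standard errors of the 10 genes, from 0.18 to 0.43, were above the median of 0.17 over all genes. The count over all genes rested on single libraries. edgeR called 0 genes without rat 3, 5, 7 or 8, 67 (0.4%) without rat 10 and 2421 (14.5%) without rat 6, and 0 of the 10 each time. In none of the 10 did the groups lie apart, beside 5.41% of all genes. The log2 fold changes ran from -0.01 for mt-Co1 to 0.31 for mt-Nd6, with 9 of 10 above 0 and a median of 0.12. The smallest adjusted p was 0.643 for mt-Nd4. The sign rested on single rats: the median was -0.04 without TBI rat 9 and -0.0042 without sham rat 1.

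Complex I genes varied most between thalamic libraries. mt-Nd6 took 0.0301%, 0.0874%, 0.0370%, 0.0414% and 0.0977% of the counts in sham rats 1 to 5 and 0.0375%, 0.0374%, 0.0640%, 0.136% and 0.0953% in the TBI group (rats 6 to 10). Rats 2, 5, 9 and 10 were high and rats 1, 3, 4, 6 and 7 low, which cuts across the groups. Its log2 fold change was 0.31 (SE 0.43, edgeR adjusted p = 0.699), and the 95% interval ran from -0.62 to 1.25. The highest thalamic library held 4.50 times the share of the lowest for mt-Nd6 and 3.88 times for mt-Nd5, but 1.84 times for mt-Co1.

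mt-Co1 in the thalamus took 1.52%, 2.34%, 1.33%, 1.56% and 1.95% in sham rats 1 to 5 and 1.62%, 1.27%, 1.82%, 2.04% and 1.98% in the TBI group (rats 6 to 10). Sham rat 2 was highest and TBI rat 7 lowest. Its log2 fold change was -0.01 (SE 0.18, edgeR adjusted p = 0.976), with a 95% interval from -0.39 to 0.37. mt-Co2, mt-Co3, mt-Atp6 and mt-Cytb had values of 0.07, 0.06, 0.13 and 0.08 on the same scale, each with a standard error between 0.19 and 0.27.

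In the hippocampus, 0 of the 10 genes passed, as did 0% of all 16963 genes tested with edgeR. An unadjusted edgeR p under 0.05 was found for 1431 genes (8.44%), none of them among the 10. DESeq2 called 16 genes or 0.101%, again none of the 10, and voom called 0%. In none of the 10 did the groups lie apart, beside 0.984% of all genes. All 10 log2 fold changes were below 0, from -0.24 for mt-Nd6 to -0.06 for mt-Nd5, with a median of -0.15 beside -0.01 over all genes. The median was -0.09 without the libraries of rats 4 and 5, -0.17 without those labelled rats 3 and 8, and -0.19 without all 4. With each rat left out in turn it lay between -0.19 and -0.051, the latter without sham rat 5, when 1 of the 10 genes was above 0. Without the pairs named and all 4, edgeR called 0 of the 10 genes, beside 0%, 1.55% and 0.469% of all genes.

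mt-Co1 came nearest to the threshold for a single test in the hippocampus. It took 1.56%, 1.90%, 1.32%, 0.864% and 0.782% of the counts in sham rats 1 to 5 and 1.44%, 1.45%, 1.52%, 1.32% and 1.66% in the TBI group (rats 6 to 10). The sham rats held both the highest and the lowest shares. On the TMM scale the log2 fold change was -0.19 (SE 0.09, edgeR unadjusted p = 0.0530, adjusted p = 0.597). mt-Nd6, at -0.24, had a standard error of 0.23, while the other 9 genes had standard errors between 0.09 and 0.12.

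The direction in cortex and hippocampus depended on the scaling. With libraries scaled by total counts alone, the median of all genes moved to 0.21 in the cortex and 0.38 in the hippocampus, and 4 and 10 of the 10 genes then had positive values. Relative to that shifted median of all genes, the median of the 10 was at -0.22 in the cortex and -0.14 in the hippocampus, close to -0.21 and -0.14 with TMM.

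The response to TBI was then compared between areas as the interaction of area and treatment. For thalamus against cortex, 0 of the 10 genes passed in edgeR, beside 0.44% of all genes. The differences in log2 fold change ranged from 0.16 for mt-Co1 to 0.53 for mt-Nd5 (SE 0.49, adjusted p = 0.856). For hippocampus against cortex, 0 of 10 passed, beside 3.04% of all genes, with differences from -0.05 to 0.28. For hippocampus against thalamus, 0 of 10 passed, beside 0% of all genes, with differences from -0.49 to -0.09. In none of these comparisons did any of the 10 have an unadjusted p under 0.05, beside 9.45%, 18.9% and 13.4% of all genes, and with the rat as a block edgeR also called 0 of 10 in each, beside 0.276%, 5.92% and 0% of all genes. Without the hippocampal libraries of rats 4 and 5, those of rats 3 and 8, or all 4, 0 of 10 were called for hippocampus against cortex, beside 1.51%, 0.709% and 0.187% of all genes, and 0 of 10 for hippocampus against thalamus, beside 0% in each. The opposite signs of cortex and thalamus were thus within the error, and their intervals were wide, from -0.50 to 1.56 for mt-Nd5.

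The areas were then compared within each group of rats. In sham rats, hippocampus against cortex, all 10 genes were lower in the hippocampus, beside 25.5% of all genes called lower by edgeR. The log2 differences ran from -1.66 for mt-Nd6 (SE 0.31, adjusted p = 0.00143) to -0.91 for mt-Co1 (SE 0.11, adjusted p = 5.99e-06), with a median of -1.10 beside -0.02 over all genes. In 9 of the 10 genes no hippocampal sham library reached the lowest cortical one on the TMM scale, beside 33.6% of all genes that did not overlap. Here and in the comparisons of areas below, shares of all genes that did not overlap count both directions. mt-Nd6 was the exception. All 10 genes were also called lower without the hippocampal library labelled rat 3, those of rats 4 and 5, or all of these, beside 23.6%, 20.8% and 17% of all genes.

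In sham rats, thalamus against cortex, edgeR called 9 of the 10 genes lower in the thalamus, beside 34.6% of all genes called lower, and 7 did not overlap, beside 52.7% of all genes. mt-Nd5 differed most, at -1.54 (SE 0.31, adjusted p = 0.000825), followed by mt-Nd4 at -1.35. mt-Co2 was the gene that did not pass, at -0.30 (SE 0.19, adjusted p = 0.176). With the rat as a block it passed as well, at -0.31 (edgeR adjusted p = 0.0473), so that all 10 genes were called lower, beside 34.3% of all genes. mt-Nd2 at -0.77 and mt-Nd6 at -0.92 lost the call without sham rat 2, 3 or 4, when 7 genes were called lower beside 34.1%, 31.5% and 31.4% of all genes.

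Hippocampus against thalamus in sham rats gave 1 gene of 10, beside 66.1% of all genes called in either direction. This was mt-Co2, which was lower in the hippocampus at -1.05 (SE 0.16, edgeR adjusted p = 5.69e-05) and the only one of the 10 whose libraries did not overlap, beside 52% of all genes. edgeR called 1 of the 10 genes also without the hippocampal library labelled rat 3, those of rats 4 and 5, or all of these, beside 62.8%, 58.6% and 50.6% of all genes. It called 2 without rat 1 in both areas, beside 61.7%, and 4 with total counts only, beside 56.3%. With all sham libraries and TMM, the 9 genes other than mt-Co2 ranged from -0.76 for mt-Nd6 to 0.24 for mt-Nd5. With the rat as a block, mt-Nd6 also passed, at -0.65 (edgeR adjusted p = 0.00478), so that 2 genes were called, beside 65.1% of all genes. 1 of the 5 pairs in this fit rests on the hippocampal library labelled rat 3, which went against its label, and the fit was not run without it. In the order of the areas, all 10 genes had their highest value in the cortex. mt-Co2 did not differ between cortex and thalamus beyond the spread unless the rat was a block, and thalamus and hippocampus did not differ beyond it for 9 genes, or for 8 with the block. This number also changed without rat 1 and with total counts only, as given above.

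In TBI rats, compared in the same way after the sham rats had been seen, edgeR called all 10 genes lower in the hippocampus than in the cortex, beside 30.4% of all genes called lower, and all 10 did not overlap, beside 42.9%. The median log2 difference was -0.98, and mt-Nd6 differed most, at -1.70 (SE 0.16, adjusted p = 1.51e-06). Thalamus against cortex gave 6 genes called lower (mt-Nd1, mt-Nd4, mt-Nd5, mt-Co1, mt-Co3 and mt-Cytb), beside 33.3% of all genes called lower, with a median of -0.66. This count was 4 without rat 6, 3 without rat 8 and 2 without rat 10, beside 30.8%, 31% and 30.4% of all genes called lower in these fits. With the rat as a block 9 of the 10 were called lower, all but mt-Co2, beside 33.9% of all genes. Only mt-Co1 did not overlap there, beside 49.3% of all genes. Hippocampus against thalamus gave mt-Nd2 at -0.88, mt-Nd6 at -1.27 and mt-Co2 at -1.18, 3 genes called lower beside 32% of all genes, of which mt-Nd6 and mt-Co2 did not overlap, beside 49.9%. Without the hippocampal library labelled rat 8, 10 genes were called lower against the cortex, beside 27.6% of all genes, and 3 against the thalamus, beside 30%.

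**Figure D3:**
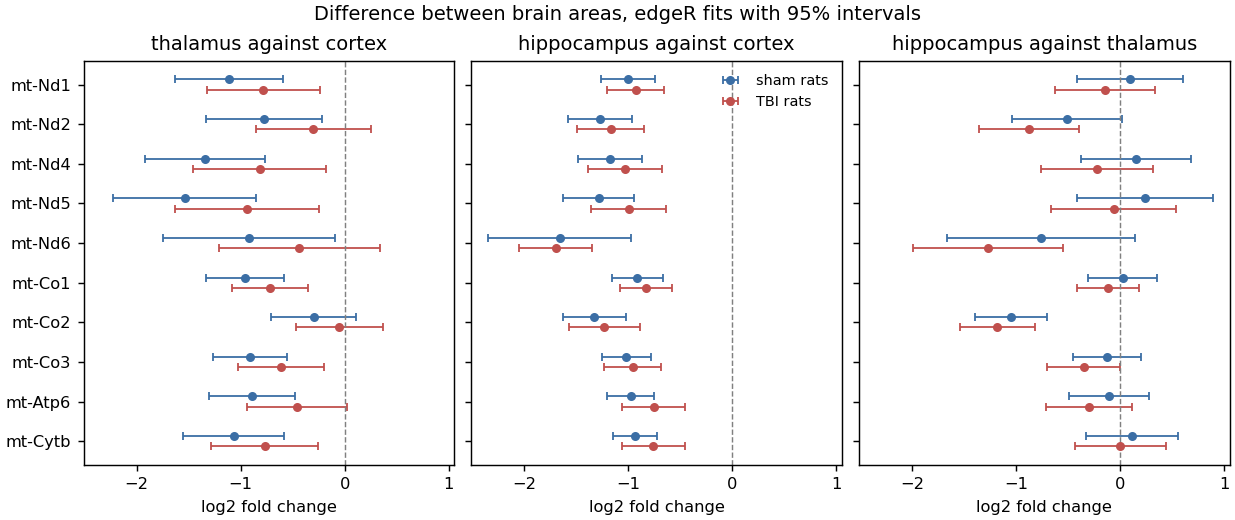
Points are log2 differences of each gene between areas in sham rats (blue) and TBI rats (red). Bars are 95% intervals computed from edgeR's test statistic (n = 5 against 5 libraries). All 10 genes lie below 0 for hippocampus against cortex in both groups, and mt-Co2 is the gene nearest to 0 for thalamus against cortex, at -0.30 in sham rats and -0.05 in TBI rats.

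The shares of single genes in all libraries kept a wide order. mt-Co1 took the largest share of the 10 in every library, from 0.782% in hippocampal sham rat 5 to 3.63% in cortical TBI rat 9, and mt-Nd6 the smallest, from 0.0122% in hippocampal sham rat 4 to 0.136% in thalamic TBI rat 9. Shares of counts are not per length of transcript, so that this order is one of counts and not of transcript numbers. mt-Nd5 took the second smallest share in each library.

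**Figure D4:**
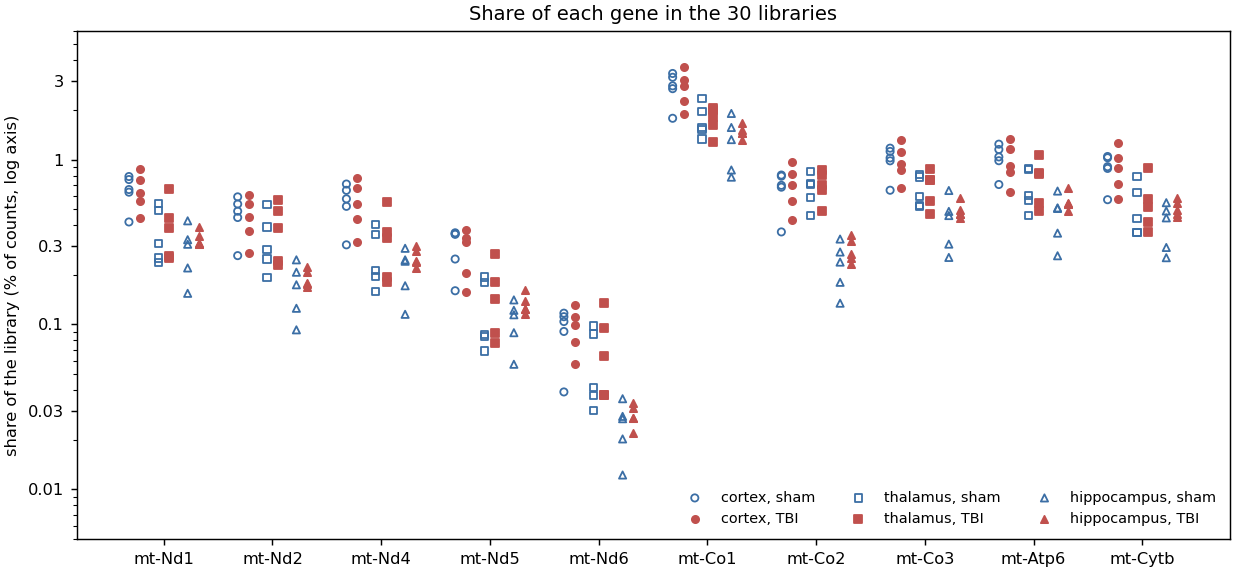
The share of each of the 10 genes in percent of all counts, on a log axis, in each of the 30 libraries. Open symbols are sham rats, filled symbols TBI rats, circles cortex, squares thalamus and triangles hippocampus; mt-Co1 reaches 3.63% and mt-Nd6 falls to 0.0122%, and sham and TBI libraries overlap for every gene within every area.

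The make-up of the mitochondrial counts differed between areas. As a percent of the counts of the 10 genes, mt-Co2 made up between 6.93% and 8.57% in the 10 cortical libraries, between 5.97% and 7.27% in the hippocampal ones, and between 10.2% and 14.6% in the thalamic ones. No thalamic library overlapped with any library of the other areas. The thalamus was also the area sequenced on another instrument with longer reads, so that area and sequencing cannot be told apart here. These values come from the same counts as the comparisons of areas above and carry no test.

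mt-Nd6 made up between 0.741% and 1.24% of the mitochondrial counts in the cortex, between 0.752% and 1.71% in the thalamus and between 0.522% and 1.08% in the hippocampus. The high hippocampal value came from sham rat 5 alone, and the other 9 hippocampal libraries were at or below 0.710%. In the cortex, sham rat 1 was lowest at 0.741%, and the other 9 libraries were between 1.05% and 1.24%. The use of strand in the counting is not given in the sources used here, and mt-Nd6 lies on the opposite strand beside mt-Nd5, so that counts of mt-Nd6 are uncertain.

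In the thalamus the make-up varied more between libraries than in the cortex. mt-Co1 made up 37.9%, 33.2%, 31.7%, 32.2% and 28.5% of the mitochondrial counts in sham rats 1 to 5 and 35.2%, 32.7%, 30.2%, 25.8% and 31.0% in the TBI group (rats 6 to 10). It was lowest in TBI rat 9, which had the highest summed share, and highest in sham rat 1, which had the second lowest. mt-Nd4 ran from 3.94% in sham rat 1 to 6.93% in TBI rat 9. Other libraries did not follow the total: sham rat 2, with the second highest total, had mt-Co1 at 33.2% and mt-Nd4 at 4.96%, close to 32.7% and 5.03% in TBI rat 7, which had the lowest. In the cortex mt-Co1 stayed between 31.9% and 34.6%.

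TBI and sham libraries overlapped in this make-up for all 10 genes in every area. In the cortex the mean of mt-Atp6 was 12.3% in sham rats and 11.8% in TBI rats, and that of mt-Co2 was 7.89% and 8.33%. The largest difference of means was that of mt-Co1 in the thalamus, 32.7% in sham rats and 31.0% in TBI rats.

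**Figure D5:**
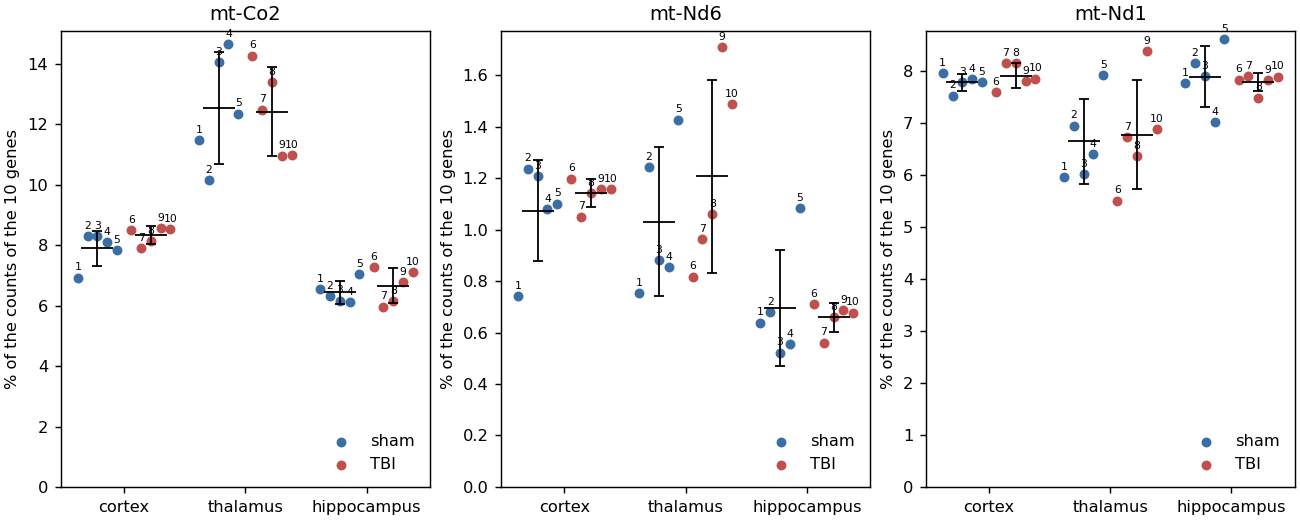
The percent of the counts of the 10 genes that fell on mt-Co2, mt-Nd6 and mt-Nd1 in each library, with the rat's number, group means (horizontal lines) and SDs (bars, n = 5). mt-Co2 lies between 10.2% and 14.6% in the thalamus and at most 8.57% elsewhere, and mt-Nd6 spreads from 0.752% to 1.71% in the thalamus.

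The 10 genes varied together across libraries. After the mean of each area was taken off the log2 CPM, Pearson's r between 2 of the genes over the 30 libraries ranged from 0.760 to 0.975, with a median of 0.921 over the 45 pairs. Within areas, over 10 libraries each, the median was 0.956 in the cortex, 0.947 in the thalamus and 0.820 in the hippocampus, where the lowest pair was at 0.0221. These libraries share depth, scaling and dominant identifiers, so that r is a description. Among 15994 identifiers tested in all 3 areas, the identifier outside the list whose values were most like the mean of the 10 was ENSRNOG00000031053, with r = 0.962 over the 30 libraries, and the next was ENSRNOG00000001829, with r = 0.907. The fifth was at 0.905.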

How the data were processed

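The deposited files held unnormalized counts of reads per Ensembl identifier, 1 table per brain area, which the authors made by aligning reads to Rnor_5.0 with STAR. The submitters' processing notes also name DESeq2 and R 3.1.0. The counting tool, strand setting and treatment of reads that also match nuclear copies of mitochondrial genes are not given in the sources used here. The genes and lists were chosen with earlier results of these data known. All 10 genes are named, whatever their result, and the identifiers most like them by Pearson's r.

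Each area was fitted alone in R 4.3.3 with edgeR 4.0.16: filterByExpr (minimum count 10, minimum total count 15), TMM, robust quasi-likelihood test, Benjamini-Hochberg adjustment over all genes tested and a threshold of 0.05. log2 CPM had a prior count of 3. Interactions and areas were tested in pairs of areas. Alternatives were DESeq2 1.42.0, DESeq2's size factors (RLE), total counts, TMM without the 10 genes, no filter, limma 3.58.1 voom with quality weights, 1 fit for all areas, the rat as a block and libraries left out. Chosen only after seeing the data were the covariate, TMM also without the dominant identifiers, the cortex without rats 1, 7 and 8, only the hippocampal columns whose header holds the tag FC120, and the areas within TBI rats. Planned lists of 173 pathway and marker genes could not be applied, as 0 could be paired with an identifier. Every column of the tables was used (0 unused).

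The same rats gave all areas, so that the rat number pairs the libraries. Same-rat libraries deviated from their group means with a mean correlation of 0.0579 (cortex with thalamus), 0.122 (cortex with hippocampus) and 0.0384 (thalamus with hippocampus). A check for duplicate libraries found none among the 60 pairs within groups (chi-square per degree of freedom at least 14.2), and says nothing else of the replicates.

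The procedure was tested on simulated counts with 200 changed genes. For cortex (17185 genes) edgeR found 79% of the 2-fold and 51% of the 1.5-fold changes, for thalamus (16605 genes) 76% and 17%, and for hippocampus (16963 genes) 89% and 53%.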

Additional observations from a re-analysis of the deposited data

Results flagged for a closer look

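Of 126 groups of 5 libraries (each gene and the sum, as a percent of counts or of the mitochondrial counts, by area and treatment), 5 held a library whose gap to its nearest neighbour exceeded Dixon's 95% critical value. Chance alone gives about 1 in 20 such groups. In the cortex, mt-Co2 took 0.364% of the counts in sham rat 1, and the nearest sham library was at 0.680%. In the thalamus, mt-Cytb made up 11.3% of the mitochondrial counts in sham rat 2 (nearest 9.20%) and 11.2% in TBI rat 9 (nearest 9.33%). In the hippocampus, mt-Nd6 made up 1.08% of them in sham rat 5 (nearest 0.680%), and mt-Nd1 made up 7.49% in TBI rat 8 (nearest 7.83%).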

How the results depend on the processing

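Counts of the 10 genes called for TBI against sham were 0 in every area under every alternative run, except the cortex with the share of the dominant identifiers as covariate (7). These alternatives called 16.1% to 30.4% of all genes in the cortex, 3.8% to 19.2% in the thalamus and 0% to 1.55% in the hippocampus. Leaving out single rats also gave counts of 0, beside 20.7% to 25.4%, 0% to 14.5% and 0% to 0.00586% of all genes. Between areas in sham rats, the count for thalamus and hippocampus was 4 with total counts only (56.3% of all genes) and 2 with the rat as a block (65.1%), and between 1 and 2 with each rat left out (59.8% to 64.9% of all genes). For cortex and thalamus it was 7 to 9 in sham rats (31.4% to 34.1% of all genes called lower) and 2 to 7 in TBI rats (30.4% to 33.4%) with each rat left out. With the rat as a block, counts for the interactions stayed at 0 (those with the hippocampus keep its libraries labelled rats 3 and 8), and for cortex and thalamus 10 genes were called in sham rats and 9 in TBI rats (33.9% of all genes called lower). In sham rats, mt-Nd2 and mt-Nd6 also lost that call with total counts only and with no filter on low counts (24% and 29.2% of all genes called lower), and in TBI rats 4 genes were called with each (27.9% and 29%).

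The difference in summed share in the hippocampus turned to -0.402 on the TMM scale and to -0.416 without rats 3, 4, 5 and 8. Log2 fold changes for TBI changed sign with total counts only: in the cortex mt-Nd1 (0.0053), mt-Nd6 (0.044), mt-Co2 (0.058) and mt-Cytb (0.012), in the thalamus mt-Co1 (0.0069), and in the hippocampus mt-Nd1 (0.21), mt-Nd2 (0.18), mt-Nd4 (0.27), mt-Nd5 (0.34), mt-Nd6 (0.20), mt-Co1 (0.20), mt-Co2 (0.30), mt-Co3 (0.19), mt-Atp6 (0.29) and mt-Cytb (0.32). This follows from the scale, since the median of all genes rose too. With voom, thalamic mt-Co1 was at 0.081. Hippocampal mt-Nd5 was at 0.031 with the covariate and 0.027 in the libraries whose column header holds the tag FC120, and the cause was not tested.

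With each rat left out, thalamic values ranged from -0.16 to 0.30 for mt-Nd1, -0.0026 to 0.44 for mt-Nd2, -0.035 to 0.51 for mt-Nd5, -0.036 to 0.58 for mt-Nd6, -0.10 to 0.12 for mt-Co1, -0.046 to 0.18 for mt-Co2, -0.057 to 0.18 for mt-Co3, -0.045 to 0.25 for mt-Atp6 and -0.17 to 0.28 for mt-Cytb. Hippocampal mt-Nd5 ranged from -0.14 to 0.035. The power was limited, and edgeR recovered 17% of simulated 1.5-fold changes in the thalamus.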
